A study of Mus musculus with 45 samples.

Results

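Regulatory T cells (Tregs) labelled Nrp1-deficient were compared with Tregs labelled Nrp1-sufficient, both sorted from tumours of heterozygous mice. In edgeR's test across all genes 0 genes passed the threshold, while DESeq2 called 12, and Nrp1, Foxp3 and Ifng had overlapping values. Gene lists of Treg identity, suppression, interferon response, AKT and FOXO signalling, proliferation and metabolism, 21 in all, held 0 genes called by edgeR, and their median log2 differences ran from -0.22 to 0.59. The members were chosen by title, as the tumour libraries named HTY or HTG, 10 of the 45 libraries of the series. The 5 HTY libraries carry the genotype label Het_Nrp1- (called HetNrp1def here), and the 5 HTG libraries the label Het_WT (HetWT). Each library was made from 5000 sorted Tregs, and the tumours were B16 melanomas, a transplantable mouse skin tumour. Every group of the heterozygous mice, the sufficient cells included, came from animals that carried the Nrp1 defect in part of their Tregs. In the published study, as background that the labels do not give, Cre recombinase is driven from the Foxp3 locus and Nrp1 is floxed. Foxp3 lies on the X chromosome, and in heterozygous females X inactivation leaves both kinds of Treg side by side. The labels give no age, no number of animals and no statement that a deficient and a sufficient library with the same replicate label came from the same tumour. Nothing in them says that replicates are separate animals, so p-values cover the spread among the samples at hand, and that spread may be technical. The question the comparison addresses is whether Tregs without Nrp1 differ in RNA from Nrp1-sufficient Tregs of the same kind of host. The same cells of the non-draining lymph node (HetNrp1def and HetWT, 5 libraries each) and the tumour Tregs labelled N and WT (5 libraries each) served as further comparisons. N is described in the design text only as far as it names homozygous deficient mice. The N libraries carry a genotype label like that of HetNrp1def and were kept apart by title.

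Nrp1 (neuropilin-1) is a membrane co-receptor for semaphorins and for vascular endothelial growth factor. It marks many Tregs of thymic origin, and binding of semaphorin-4a to Nrp1 is known to restrain AKT signalling in Tregs and so to keep FOXO transcription factors in the nucleus. Foxp3 is the transcription factor that defines the lineage. Interferon gamma, encoded by Ifng, is the hallmark cytokine of Th1 cells, and its production by Tregs together with loss of suppression is known as Treg fragility.

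Total counts of the 10 libraries ran from 3561012 to 24736626, with the shallowest libraries named ds2 in both groups (3561012 in HetNrp1def and 4743740 in HetWT). Libraries ds1 and 4 differed by little more than counting noise within each group, with a chi-square per degree of freedom of 2.54 in HetNrp1def and 2.69 in HetWT. The next lowest among all pairs of the 10 libraries was 27.2, between the ds2 libraries of the opposite genotypes. Libraries ds1 and 4 were therefore summed and counted as 1 sample in each group, although one of each pair is named as double sorted and the other is not. That left 4 samples a side, 8 in all, with totals of 24320272 (HetNrp1def) and 22714668 (HetWT) in the joined samples. HetWT replicate 2 stood apart, with a median correlation of log2 expression of 0.819 with the other 7 samples, against 0.854 to 0.902 for those 7. The nuclear RNA Malat1 took 1.45% and 1.20% of the counts in the ds2 samples and 0.350% to 0.856% in the other 6. Y-linked genes had 47 counts in HetNrp1def ds2, 1 in the joined HetNrp1def sample and 0 in the other 6.

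Nrp1, the targeted gene, had overlapping values in the samples labelled deficient and sufficient. It (chromosome 8, 128358604 to 128503363 of mm10, plus strand) stood at 119, 259.5, 105 and 133 CPM in HetNrp1def and at 231, 124, 95.1 and 169.7 CPM in HetWT, in the order replicate 2, replicate 3, joined sample and ds2, which is used throughout. CPM is the count scaled to a common library size, with TMM as a correction for differences in RNA composition. The highest value was that of a sample labelled deficient, and the groups overlapped over nearly their whole range. The log2 fold change, HetNrp1def minus HetWT, was -0.01 (SE 0.48, 95% interval -0.96 to 0.95), so a 2-fold lower or higher level lay just outside the interval. In a two-sided exact permutation test of mean log2(CPM + 1) the difference was -0.02 (p = 0.943, n = 4 and 4, where the smallest possible p is 0.0286). Which exons were deleted is not stated in the labels, and a whole-gene count cannot check the loss of a part of the gene. Each sample's genotype is therefore the one on its label.

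Foxp3 (chromosome X, 7573644 to 7595245, plus strand) stood at 17.6, 22.6, 10.4 and 60.0 CPM in HetNrp1def and at 10.1, 8.66, 41.2 and 51.9 CPM in HetWT. The ds2 samples were the highest of both groups, and the joined samples lay on opposite sides, low in HetNrp1def and high in HetWT. The log2 fold change was -0.02 (SE 1.32, 95% interval -2.67 to 2.63), an interval that spans more than 4-fold in each direction, and the exact permutation p was 0.886. Ifng (chromosome 10, 118441046 to 118445892, plus strand) stood at 221, 405, 132 and 39.6 CPM in HetNrp1def and at 491, 112, 41.7 and 24.7 CPM in HetWT. HetNrp1def was higher in replicate 3, the joined sample and ds2, while HetWT replicate 2 had the highest value of the 8 samples. The log2 fold change was 0.25 (SE 1.31, 95% interval -2.41 to 2.92), and without HetWT replicate 2 it was 1.72. The exact permutation test gave a difference of 0.75 with p = 0.571. Over these 3 genes the Benjamini-Hochberg adjusted exact p was 0.943 for each.

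**Figure D1:**
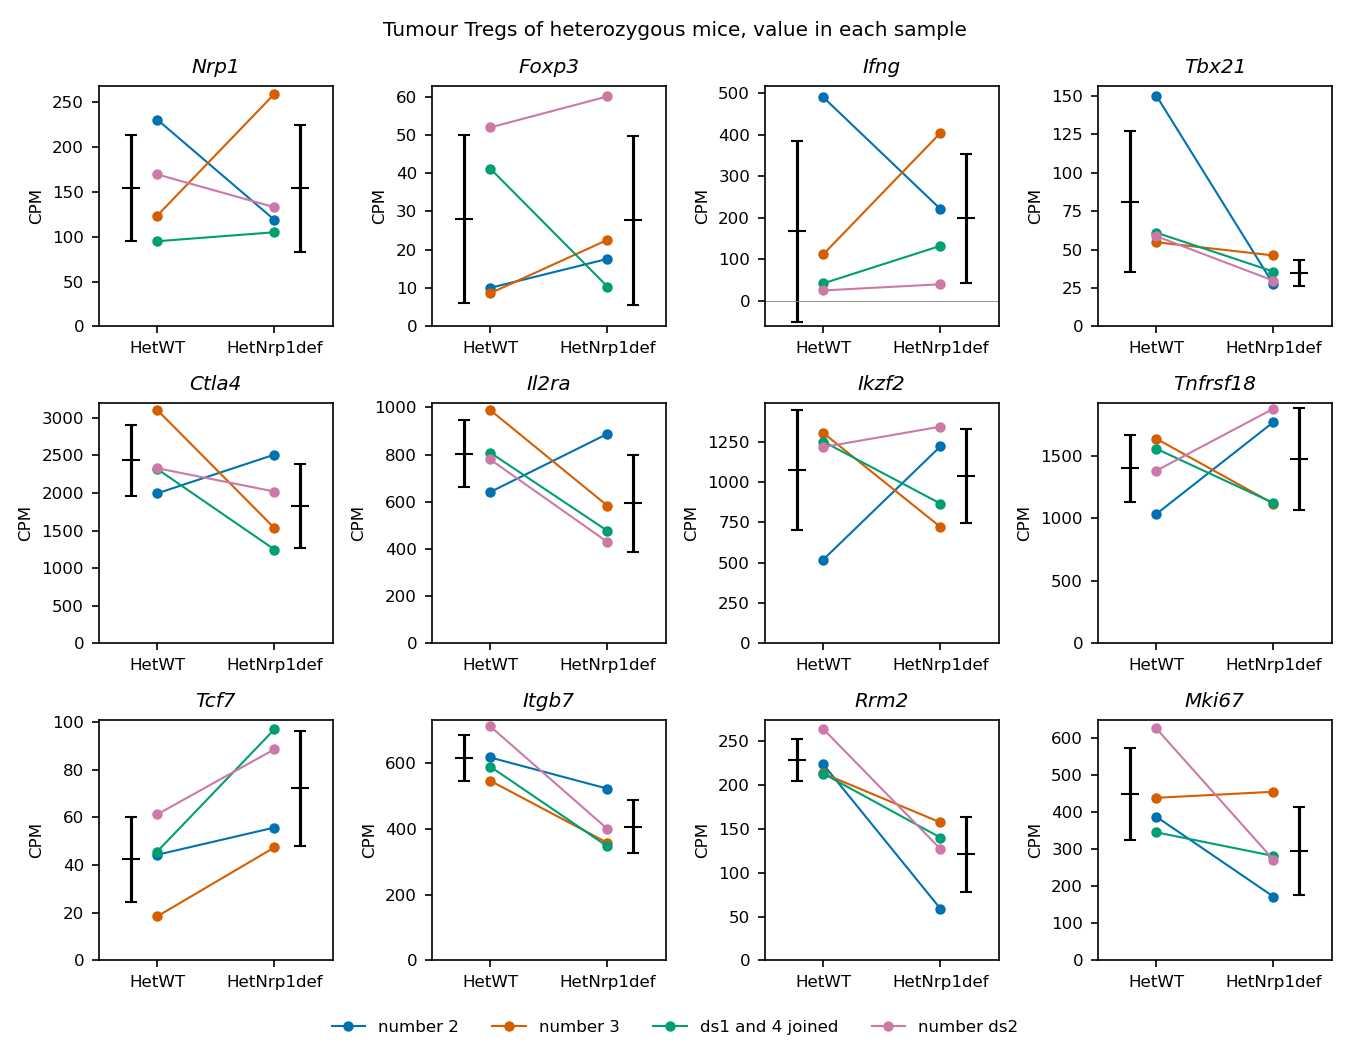
Expression of 12 genes in the 8 tumour samples, in CPM on linear axes; points are samples, lines link samples with the same replicate label, and the bars beside them are mean ± SD of 4 samples. Nrp1, Foxp3 and Ifng overlap between HetWT and HetNrp1def, while Tbx21, Itgb7 and Rrm2 are lower in every HetNrp1def sample than in every HetWT sample, as were 98 of all 14668 tested genes (0.668%), though none passed the test across all genes.

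Across all genes no difference between the cells passed edgeR's test. Of 14668 genes with enough counts, 0 had a Benjamini-Hochberg adjusted p below 0.05 in edgeR's quasi-likelihood test (0% called), and the lowest adjusted p was 1. At an unadjusted p below 0.05 there were 291 genes (1.98% of those tested), 156 higher and 135 lower in HetNrp1def. DESeq2, another count test, called 12 genes, 6 in each direction, with 452 at an unadjusted p below 0.05. Of those 12, Raet1e, Hist3h2bb-ps and Efcab3 did not pass the count filter and the other 9 had an edgeR adjusted p of 1. Only Ttll4 and Cd40 had counts in both groups, Cd40 in 4 HetNrp1def samples and 1 HetWT sample. Each other call had no count in any sample of 1 group, and Raet1e, Gm9733, Gm10638 and Gm6377 had counts in 1 sample alone. The calls given with values, Ttll4 and Amot, were picked after their values were seen. Ttll4, a tubulin-modifying enzyme and a DESeq2 call higher in HetNrp1def, stood at 18.5, 10.6, 1.67 and 7.63 CPM in HetNrp1def and at 0.647, 0.495, 0.209 and 0 CPM in HetWT. All HetNrp1def samples lay above all HetWT samples, with the HetNrp1def values spread widely (edgeR adjusted p = 1). In the same way 121 of all tested genes (0.825%) lay wholly higher in HetNrp1def, and 98 (0.668%) wholly lower. Amot, an angiomotin scaffold protein gene and a DESeq2 call lower in HetNrp1def, took 98.0% of its counts over the 8 samples from HetWT replicate 2.

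The precision of these samples varied with the level of a gene. Between 10 and 100 CPM the median half-width of the 95% interval was 1.72 on the log2 scale, between 100 and 1000 CPM it was 1.02, and above 1000 CPM it was 0.70. Of 8348 genes with a mean of at least 10 CPM, 497 had an interval that lay wholly within a 2-fold change and 4848 one within a 4-fold change. For these 497 genes a difference of 2-fold or more lay outside the interval, and for the other genes of that level the interval reached past 2-fold in at least 1 direction. The median size of the log2 difference among the 8348 genes was 0.28, and 484 of them (5.80%) differed by over 2-fold in the fitted value. When each of the 8 tumour samples was left out in turn, the log2 difference had another sign in at least 1 fit for Nrp1, Foxp3, Ifng, Drd1a, Tnfrsf4, Tnfrsf18, Gzmb, Il10, Jak1, H2-K1, Sema4a, Sema4d, Ptprc and Gata3, of the genes whose log2 difference is given. The same held for Ikzf2, which is given below by its CPM values alone. Foxo3, given below from 1 fit alone, was not considered here. The same fit of all samples called 128 genes (0.873%) between WT tumour and WT lymph node Tregs, with 5 samples a side.

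**Figure D2:**
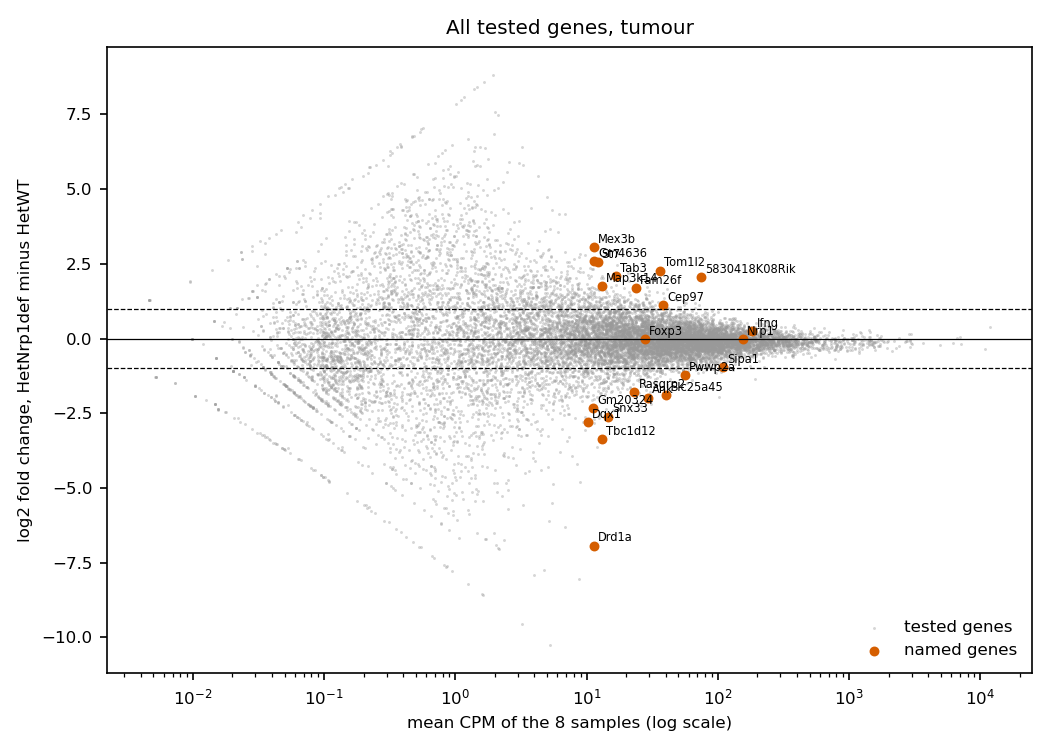
Log2 fold change of HetNrp1def minus HetWT against the mean CPM of the 8 samples (log scale) for all tested genes, with 0 and 2-fold changes marked by lines. The cloud narrows around 0 with rising expression, and the named genes in orange are Nrp1, Foxp3, Ifng and genes among those with the lowest unadjusted p, none of which passed the adjusted threshold.

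Genes of Treg identity showed no called member and lay slightly below 0. Of the 19 tested genes of this list 15 were below 0, with a median log2 difference of -0.21, against 8013 of 14668 below 0 and a median of -0.06 over all tested genes. By replicate label the list medians were 0.55, -0.65, -0.53 and -0.13, so that the replicate 2 pair stood on the other side from the rest, and without HetWT replicate 2 the fitted median was -0.37. Il2ra, which encodes CD25 of the IL-2 receptor, stood at 888, 583, 477 and 429 CPM in HetNrp1def and at 641, 988, 808 and 779 CPM in HetWT (log2 fold change -0.44, SE 0.41). It was lower in HetNrp1def in 3 of 4 labels and higher in replicate 2. Ikzf2, the transcription factor Helios, a list member outside the naming rule whose values were already seen, stood at 1221, 722, 867 and 1344 CPM in HetNrp1def and at 519, 1305, 1251 and 1217 CPM in HetWT, with HetWT replicate 2 the lowest of the 8. Tnfrsf4 and Tnfrsf18, the co-stimulatory receptors OX40 and GITR, had log2 fold changes of 0.14 (SE 0.67) and 0.07 (SE 0.31). Gpr83, a receptor of Tregs, stood at 7.43, 1.66, 2.23 and 6.89 CPM in HetNrp1def and at 18.1, 7.18, 9.23 and 13.2 CPM in HetWT. It was lower in HetNrp1def under all 4 labels, with overlapping groups (log2 fold change -1.41, SE 0.97). The same direction under all 4 labels was seen in 742 genes lower in HetNrp1def (5.06% of those tested) and 726 higher (4.95%).

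Among mediators of suppression 10 of 17 tested genes were below 0, with a median of -0.10. Ctla4, an inhibitory receptor that takes up CD80 and CD86 from antigen-presenting cells, stood at 2510.0, 1534, 1249 and 2019 CPM in HetNrp1def and at 1995, 3104, 2319 and 2329 CPM in HetWT (log2 fold change -0.41, SE 0.73). HetWT exceeded HetNrp1def in 3 of 4 labels. Gzmb, the protease granzyme B, and Il10, a suppressive cytokine, fall outside the rule for named genes and are given as pathway members whose values were already seen. Their log2 fold changes were -0.24 (SE 1.08) and 0.08 (SE 1.12), and that of Il10 was -0.81 without HetNrp1def replicate 2. Il12a, the p35 chain of IL-35, had no count in any HetNrp1def sample and at most 0.919 CPM in HetWT, near the floor of detection. In the list of activated Tregs 15 of 24 genes were above 0, with a median of 0.10 and medians by label of 1.06, -0.27, -0.12 and 0.04. The value above 1 came from the replicate 2 pair, and without HetWT replicate 2 the median was -0.06. Tnfrsf9, the receptor 4-1BB, stood at 1348, 675, 674 and 1240.0 CPM in HetNrp1def and at 1059, 1273, 1587 and 1091 CPM in HetWT. Its groups overlapped, with a log2 fold change of -0.35 (SE 0.46). Cd83, an activation marker of lymphocytes and dendritic cells, had one of 1.52 (SE 1.03), with 0.0588 CPM in HetWT replicate 2 and a fitted value of 1.09 without that sample. Of the checkpoint receptors 8 of 13 were above 0 (median 0.02), and Havcr2, the receptor TIM-3, had a log2 fold change of -0.61 (SE 0.99).

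Genes of the interferon gamma and Th1 pathway went in both directions. Of 21 tested members 11 were above 0 and 10 below, with a median of 0.07 (0.34 without HetWT replicate 2), and 0 were called. Ifngr2, the signalling chain of the interferon gamma receptor, had a log2 fold change of 1.66 (SE 0.97). Tbx21, the Th1 transcription factor T-bet, stood at 27.4, 46.2, 35.7 and 29.8 CPM in HetNrp1def and at 150.2, 54.8, 61.0 and 58.7 CPM in HetWT. Every HetNrp1def sample lay below every HetWT sample, and HetWT replicate 2 was far above the rest. Its log2 fold change was -1.22 (SE 0.97, edgeR unadjusted p = 0.220, adjusted p = 1) and was -0.77 without HetWT replicate 2, and the gene was picked out after its values were seen. Il12rb1, the shared chain of the IL-12 and IL-23 receptors, stood at 83.4, 67.5, 51.0 and 38.6 CPM in HetNrp1def and at 252, 73.9, 117 and 90.0 CPM in HetWT. It was lower in HetNrp1def under all 4 labels (log2 fold change -1.15, SE 0.75, and -0.66 without HetWT replicate 2), again with the largest gap in replicate 2. Jak1, a kinase of the receptor, had a log2 fold change of -0.24 (SE 0.92) that was 0.45 without HetWT replicate 2.

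Downstream of interferon gamma, 23 of 35 response genes were below 0, with a median of -0.14 and medians by label of -0.03, -0.22, -0.06 and -0.04. Tap1, the peptide transporter of antigen presentation, stood at 384, 303, 294 and 474 CPM in HetNrp1def and at 431, 364, 412 and 742 CPM in HetWT. HetWT was the higher one under all 4 labels, with overlapping groups (log2 fold change -0.42, SE 0.38). The interferon-inducible GTPase Iigp1 was lower in HetNrp1def under all 4 labels as well (log2 fold change -0.37, SE 0.40). H2-K1, a class I major histocompatibility gene whose reads may be shared with its close relatives, had a log2 fold change of -0.16 (SE 0.31). Of the type I interferon list 17 of 28 members were below 0 (median -0.08). In it 5 members were lower in HetNrp1def and 4 higher under all 4 labels, beside 5.06% and 4.95% of all tested genes. Irf9, a subunit of the factor that drives these genes, was among the lower ones, with a log2 fold change of -0.39 (SE 0.37).

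Genes of the route from Nrp1 to AKT and FOXO were next. Of 33 tested neuropilin, semaphorin and plexin genes 18 were above 0, with a median of 0.04. In this list 0 lay wholly apart between the groups, beside 0.825% of all tested genes wholly higher in HetNrp1def and 0.668% wholly lower. Sema4d, a transmembrane semaphorin of T cells, stood at 509.6, 258, 307 and 202 CPM in HetNrp1def and at 257, 470.2, 299 and 213 CPM in HetWT. The order of the groups changed from label to label (log2 fold change 0.04, SE 0.45). Sema4a, the ligand named above, was taken as a pathway member outside the naming rule and had a log2 fold change of 0.08 (SE 0.79) that was 1.16 without HetWT replicate 2. Of the AKT, mTOR and FOXO list 18 of 30 genes were below 0, with a median of -0.19. Under all 4 labels 6 of the list were higher in HetNrp1def and 3 lower, beside 4.95% and 5.06% of all tested genes. In this list 1 gene lay wholly higher in HetNrp1def and 1 wholly lower, beside 0.825% and 0.668% of all tested genes. Foxo1, a transcription factor that AKT removes from the nucleus, stood at 214, 121, 162 and 133 CPM in HetNrp1def and at 269, 229, 258 and 177 CPM in HetWT. It was lower in HetNrp1def under all 4 labels, while the lowest HetWT value lay inside the HetNrp1def range (log2 fold change -0.57, SE 0.37, 95% interval -1.31 to 0.17). Foxo3, another FOXO factor of the list, went the other way. In the fit without HetWT replicate 2 its log2 fold change was 4.77, beside -0.53 for Foxo1, and its CPM values are not reported here. Il7r, a FOXO target and the receptor for IL-7, was higher in HetNrp1def under all 4 labels (log2 fold change 0.46, SE 0.48). Deptor, an inhibitor of mTOR, reached 35.1 CPM in HetWT replicate 2 and at most 2.42 CPM in the other 7 samples (log2 fold change -7.75, and -4.39 without that sample).

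Of the naive and lymphoid homing genes 12 of 22 were below 0 (median -0.11, and 0.16 without HetWT replicate 2), with 5 of the list higher in HetNrp1def under all 4 labels and 1 lower, beside 4.95% and 5.06% of all tested genes. Tcf7, which encodes the transcription factor TCF-1, stood at 55.7, 47.4, 96.9 and 88.6 CPM in HetNrp1def and at 44.3, 18.5, 45.7 and 61.3 CPM in HetWT. It was higher in HetNrp1def under every label, with groups that overlapped (log2 fold change 0.77, SE 0.48). Itgb7, an integrin chain of gut homing, stood at 522, 357, 347 and 399 CPM in HetNrp1def and at 617, 546, 589 and 711 CPM in HetWT. Each HetNrp1def sample lay below each HetWT sample, by a log2 fold change of -0.60 (SE 0.42, 95% interval -1.45 to 0.25) that did not pass the test. The kinase Txk had a log2 fold change of -1.09 (SE 0.60). Among chemokines and their receptors 12 of 21 were above 0 (median 0.11). Ccr2, a receptor of inflammatory chemokines, stood at 1634, 834, 714 and 819.6 CPM in HetNrp1def and at 1734, 1651, 1406 and 807 CPM in HetWT. Replicate 2 of HetNrp1def lay among the 3 higher HetWT samples, and the other 3 HetNrp1def samples lay near HetWT ds2. Only the joined HetNrp1def sample was below the HetWT range (log2 fold change -0.48, SE 0.82).

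Proliferation genes leaned below 0. Of 34 tested members 29 were below 0, with a median of -0.20, 0 called, and medians by label of -0.27, 0.14, -0.08 and -0.78. The ds2 pair, with the lowest depth, lay lowest, and replicate 3 lay above 0. Without both ds2 samples the median was -0.05. Rrm2, the small subunit of ribonucleotide reductase, stood at 59.0, 157, 140.0 and 127 CPM in HetNrp1def and at 224, 213, 213 and 264 CPM in HetWT. Every HetNrp1def sample was below every HetWT sample (log2 fold change -0.92, SE 0.65, 95% interval -2.22 to 0.38). Bub1b, a kinase of the spindle checkpoint, stood at 10.1, 27.9, 37.6 and 45.8 CPM in HetNrp1def and at 134, 50.4, 53.2 and 104 CPM in HetWT, likewise with no overlap (log2 fold change -1.50, SE 0.98, and -1.22 without HetWT replicate 2). These were the 2 members of the list that lay wholly apart, both lower, beside 0.668% of all tested genes. Mki67, which encodes the cycling-cell antigen Ki-67, stood at 172, 454, 282 and 271 CPM in HetNrp1def and at 387, 438, 345 and 625 CPM in HetWT. It was nearly equal between the groups in replicate 3 and lower in HetNrp1def under the other labels (log2 fold change -0.61, SE 0.44).

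The survival and signalling lists also held no called member. Of the apoptosis and survival genes 21 of 27 were below 0 (median -0.22), among them Casp8, the initiator caspase of death receptors (log2 fold change -0.39, SE 0.39), while Bcl2l11, the pro-apoptotic protein BIM, had one of 0.81 (SE 0.76). Of the immediate early genes 20 of 25 were below 0, with a median of -0.19 that was -0.02 without both ds2 samples. Jun, a subunit of AP-1, stood at 53.7, 10.3, 31.4 and 56.6 CPM in HetNrp1def and at 63.7, 20.1, 32.2 and 207 CPM in HetWT. HetWT ds2 was far above the other 7 samples, and the log2 fold change was -1.09 (SE 0.92) and -0.03 without HetWT ds2. T cell receptor signalling genes had a median of -0.05, with the narrowest median half-width of the 21 functional lists, 0.92. In this list Ptprc, the phosphatase CD45, and Lck, the kinase of the receptor, had log2 fold changes of -0.04 (95% interval -0.56 to 0.48) and -0.19 (95% interval -0.68 to 0.30), both intervals within a 2-fold change. Of the chaperones 14 of 19 were below 0 (median -0.17), with medians by label of -0.21, -0.08, -0.08 and -0.20. Of this list 6 were lower in HetNrp1def under all 4 labels and 1 higher, beside 5.06% and 4.95% of all tested genes. The higher one, the co-chaperone Dnajb4, stood at 7.91, 4.45, 18.2 and 5.17 CPM in HetNrp1def and at 0.118, 1.32, 1.0 and 2.19 CPM in HetWT. Its groups did not overlap (log2 fold change 2.97, SE 0.97), beside 0.825% of all tested genes wholly higher in HetNrp1def.

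Metabolic lists lay close to 0. Glycolysis and hypoxia genes had a median of -0.06 (20 of 32 below 0), oxidative phosphorylation genes one of -0.06 (19 of 35) and sterol and fatty acid genes one of 0.03 (10 of 23). Aldoa, the glycolytic enzyme aldolase, had a log2 fold change of -0.13 (95% interval -0.73 to 0.47). Hif1a, the factor of the response to low oxygen, was taken as a pathway member outside the naming rule and had one of 0.15 (95% interval -0.52 to 0.83). Both intervals lay within a 2-fold change. Transforming growth factor beta genes had a median of -0.17, and in that list Tgfbr3, the co-receptor betaglycan, stood at 10.3, 5.05, 28.7 and 0.738 CPM in HetNrp1def and at 0.530, 0, 3.09 and 0 CPM in HetWT. It was higher in HetNrp1def under all 4 labels (log2 fold change 3.57, SE 1.03, edgeR unadjusted p = 0.00229, adjusted p = 1). The list of Th2, Th17 and Tfh genes had the median farthest from 0, 0.59 over 14 tested genes of 17. Its medians by label were 0.03, 0.02, 0.90 and 0.00, with only the joined pair far from 0. These are medians of log2(CPM + 1) and not of fitted values, and whether that pair carried the fitted median was not tested. Gata3, the Th2 transcription factor, had a log2 fold change of 0.05 (SE 0.45), and Il4, the Th2 cytokine, was at 0 in 5 of the 8 samples.

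**Figure D3:**
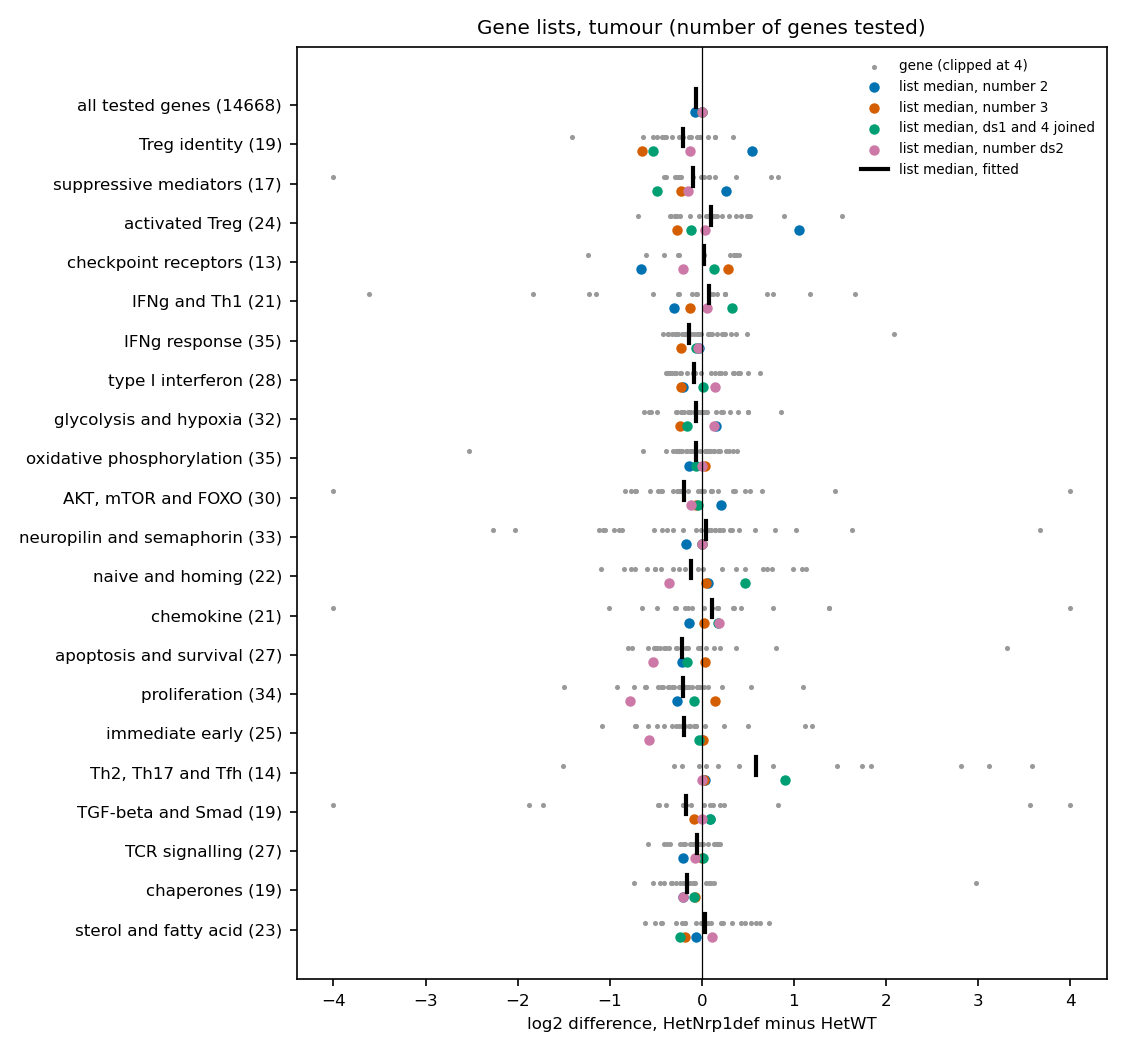
Log2 differences of HetNrp1def minus HetWT by gene list, with the number of tested genes in brackets; grey points are genes from the fit (values beyond 4 drawn at 4), black bars their medians, and coloured points the list medians for each replicate label, from log2(CPM + 1). Black bars lie between -0.22 and 0.11 except for the Th2, Th17 and Tfh list at 0.59, and the coloured points of a list often lie on both sides of 0, most widely in the Treg identity and activated Treg lists.

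The genes with the lowest unadjusted p among those of at least 10 CPM are given as values, since none was called and this comparison chose them. Among the 10 such genes higher in HetNrp1def were 5830418K08Rik, Mex3b, Tom1l2, Fam26f, St7, Gm4636, Tab3, Map3k14 and Cep97. Mex3b (chromosome 7, 82867333 to 82871515), an RNA-binding ubiquitin ligase, stood at 34.7, 16.3, 21.4 and 8.36 CPM in HetNrp1def and at 0, 3.13, 1.25 and 5.49 CPM in HetWT. All HetNrp1def samples lay above all HetWT samples (log2 fold change 3.05, SE 1.09, and 2.61 without HetWT replicate 2), and replicate 2 differed most. Map3k14 (chromosome 11, 103219762 to 103267472), the kinase NIK of the non-canonical NF-kB pathway, stood at 25.1, 23.4, 13.3 and 18.9 CPM in HetNrp1def and at 1.18, 9.49, 10.2 and 3.11 CPM in HetWT, also with no overlap (log2 fold change 1.75, SE 0.90). Tab3 (chromosome X, 85574022 to 85634469), an adaptor of the kinase TAK1 in the canonical branch, stood at 29.0, 12.4, 25.9 and 40.8 CPM in HetNrp1def and at 0.353, 21.9, 0.585 and 2.56 CPM in HetWT. HetWT replicate 3 lay among the HetNrp1def samples while the other HetWT samples were near 0 (log2 fold change 2.08, SE 1.05, and 4.58 without HetWT replicate 3). St7 also lay wholly higher in HetNrp1def (log2 fold change 2.57). Cep97, a centrosomal protein, was higher under all 4 labels with overlapping groups (log2 fold change 1.13, SE 0.59). The first gene of the list, 5830418K08Rik, had a log2 fold change of 2.05 with 342 CPM in HetNrp1def replicate 2, against 43.0 to 47.2 CPM in the other HetNrp1def samples, and 0.62 without that sample.

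Lower in HetNrp1def were Drd1a, Rasgrp2, Slc25a45, Snx33, Tbc1d12, Gm20324, Ank, Pwwp2a, Dqx1 and Sipa1. Tbc1d12 (chromosome 19, 38836579 to 38919923), a protein with a Rab GTPase-activating domain, stood at 0.0953, 1.21, 2.41 and 5.66 CPM in HetNrp1def and at 32.4, 10.6, 43.6 and 8.59 CPM in HetWT. The groups did not overlap (log2 fold change -3.37, SE 1.35, and -3.26 without HetWT replicate 2). Sipa1 (chromosome 19, 5651185 to 5663707), which switches off the adhesion GTPase Rap1, stood at 86.5, 89.3, 65.6 and 54.9 CPM in HetNrp1def and at 205, 167, 98.1 and 106 CPM in HetWT. It was lower under every label with no overlap (log2 fold change -0.96, SE 0.47). Rasgrp2, which switches Rap1 on, stood at 14.5, 4.26, 14.3 and 8.36 CPM in HetNrp1def and at 69.3, 17.2, 12.2 and 44.4 CPM in HetWT. HetWT replicate 2 and HetWT ds2 were the high samples, and the joined samples were alike (log2 fold change -1.78, SE 0.68). The mitochondrial carrier Slc25a45 did not overlap between the groups either (log2 fold change -1.88, SE 0.73). HetWT replicate 2 was the highest HetWT sample in 8 of these 10 genes and the lowest HetWT sample in 8 of the 10 chosen as higher. Over all 8348 genes of at least 10 CPM it was the highest of its group in 37.9% and the lowest in 32.5%. Drd1a, a dopamine receptor, had 89.6 CPM in HetWT replicate 2 and at most 0.667 CPM in the other 7 samples, and its log2 fold change of -6.93 was 0.65 without that sample. For Ank, a pyrophosphate transporter, -1.98 became -0.58, and for Gm20324 -2.32 became -1.13.

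The tumour difference was set against the lymph node difference of the same cells and against N minus WT in tumours, which share no samples with it. As a difference of differences, 0 of 14668 genes were called in either case (0% called, edgeR), with 571 and 305 at an unadjusted p below 0.05 and lowest adjusted p of 1 each. DESeq2 called 33 and 10 genes. Nrp1 in lymph node Tregs was 197 ± 96.4 CPM in HetNrp1def (SD, n = 4; 146 to 342 CPM) and 583 ± 573 CPM in HetWT (n = 4; 219 to 1439 CPM). The lymph node log2 difference was -1.56 (SE 0.48, edgeR adjusted p = 0.497) and -0.55 without HetWT lymph node replicate ds1, and with all samples the tumour difference exceeded it by 1.56 (SE 0.68, edgeR unadjusted p = 0.0260, adjusted p = 1). Ifng had a log2 difference of -3.20 (SE 1.32) in the lymph node, which was -1.26 without HetWT lymph node replicate ds1, and of 1.42 (SE 1.17) for N minus WT in the tumour, against 0.25 (SE 1.31) here. Neither gap passed the test (edgeR adjusted p = 1 for both). Tbc1d12 had log2 differences of -3.37 in the tumour and 3.77 in the lymph node (gap -7.15, SE 1.90, edgeR adjusted p = 1). The lymph node value was 0.88 without HetNrp1def lymph node replicate ds1, the sample with 242 CPM. Tbx21, wholly lower in tumour HetNrp1def, had log2 differences of 0.08 in the lymph node and 0.11 for N minus WT. Its lymph node value ran from -2.17 to 0.74 when samples were left out. For Sipa1 these log2 differences were 0.10 (-0.48 to 0.67 with samples left out) and 0.06, and for Mex3b -0.11 (-0.95 to 0.29) and 0.94. For Rrm2 they were -1.90, which was -0.44 without HetWT lymph node replicate ds1, and 0.03.

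**Figure D4:**
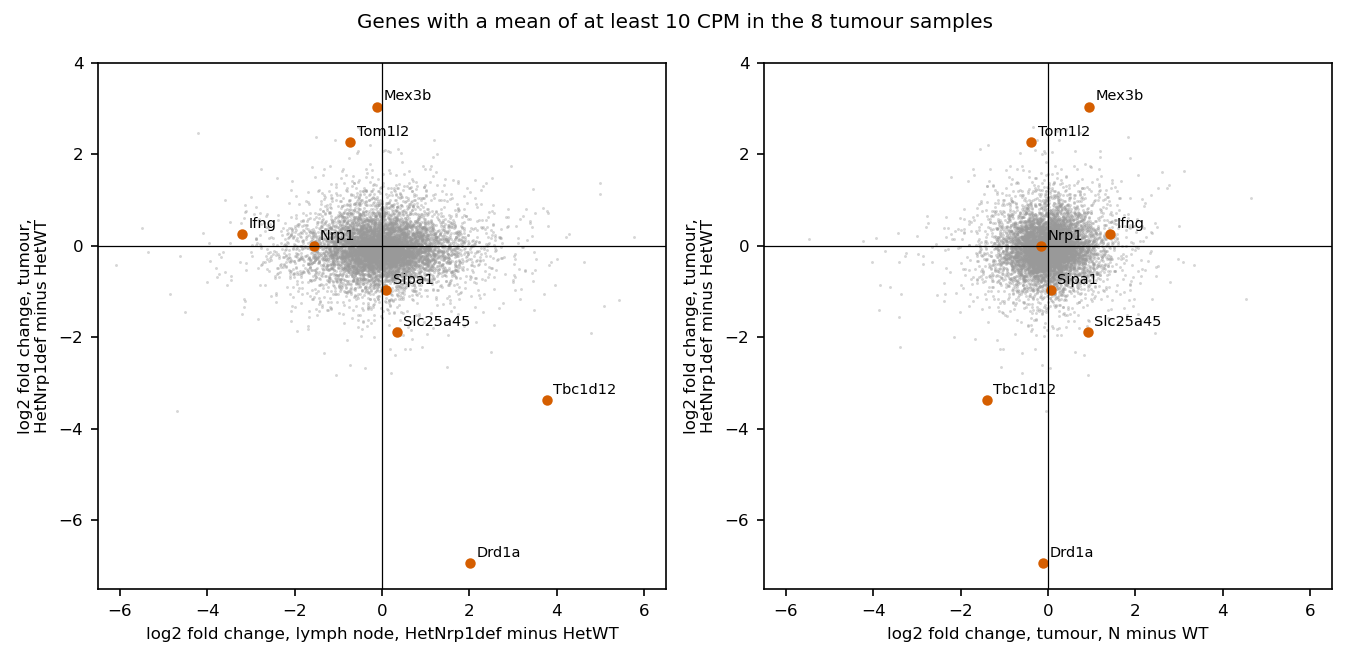
Log2 fold change of HetNrp1def minus HetWT in the tumour (vertical) against that in the lymph node (left) and against N minus WT in the tumour (right), for genes of at least 10 CPM; each grey point is a gene and orange points are named. Lymph node differences spread more widely than tumour ones, and the lymph node values of Tbc1d12 (3.77) and Ifng (-3.20) were 0.88 and -1.26 without 1 lymph node sample each.

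The cells carried Treg and T cell markers in every sample. Summed over Foxp3, Ikzf2, Il2ra, Ctla4, Tnfrsf18 and Tnfrsf4, CPM ran from 6457 to 10272 in HetNrp1def and from 5289.8 to 11012 in HetWT. Markers of other cell types varied between samples with overlapping groups. The 13 melanocyte and melanoma genes summed, in CPM, to 25.3, 437, 2064 and 32.2 in HetNrp1def and 62.3, 678, 2417 and 32.2 in HetWT. The joined samples and the replicate 3 samples of both genotypes were high, and the replicate 2 and ds2 samples of both were low. Dct, a pigment enzyme, stood at 2.10, 146, 669 and 6.15 CPM in HetNrp1def and at 0.706, 233, 825 and 0 CPM in HetWT with the same samples high. In bulk samples fewer cells of a type and less RNA per cell cannot be told apart.

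Dendritic cell genes (11 genes) ran from 59.5 to 995 CPM in HetNrp1def and from 83.7 to 502 CPM in HetWT, highest in both joined samples. Their class II gene H2-Aa reached 353 CPM in the joined HetNrp1def sample and 182 CPM in the joined HetWT sample. Macrophage genes (17 genes) ran from 329 to 1018 and from 384 to 812 CPM, led by Ctss, a protease shared by many immune cells. B cell genes lay at 3.85 to 64.0 and 10.5 to 65.7 CPM, with Ms4a1, the B cell antigen CD20, at most at 0.286 CPM and at 0 in 5 of the 8 samples, and NK cell genes at 0.246 to 59.4 and 0.366 to 75.9 CPM. CD8 T cell genes ran from 1171 to 2135 and from 785 to 2204 CPM, carried by Nkg7, while Cd8a itself stood at 66.3, 35.7, 30.3 and 14.5 CPM in HetNrp1def and at 6.47, 6.68, 8.90 and 42.2 CPM in HetWT. Fibroblast genes ran from 54.6 to 641 and from 51.0 to 885 CPM, almost wholly through Thy1, which T cells also express. Endothelial genes ran from 18.2 to 69.6 and from 16.3 to 83.2 CPM. Erythroid, neutrophil and mast cell genes, each list on its own, summed to at most 6.58 CPM in any sample. The part of these cells in any difference above was not tested. None of their genes was called by edgeR between the groups, but neither was any of the 14668 tested genes (0% called), so this says nothing about these cells.

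**Figure D5:**
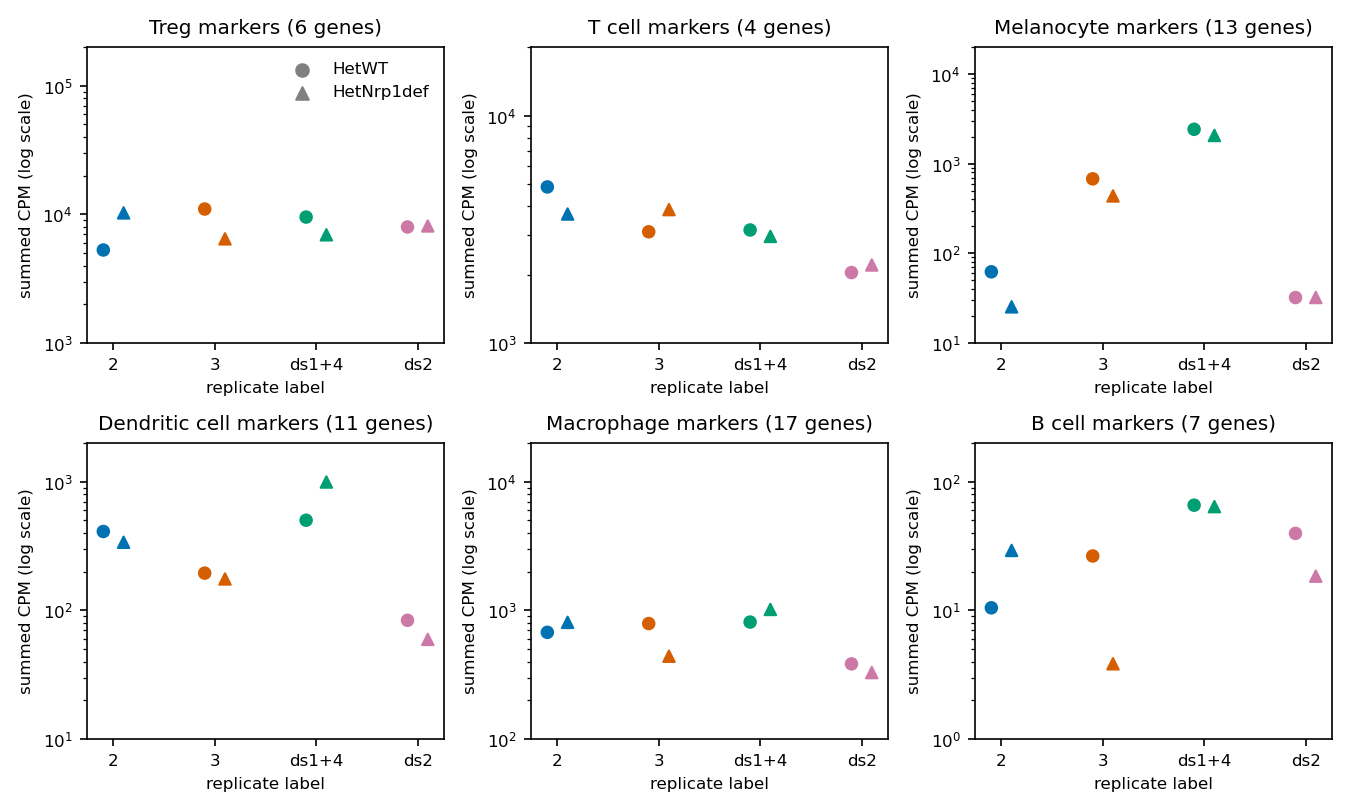
Summed CPM (log scales, each panel with its own range) of marker genes of 6 cell types by replicate label, in the 8 tumour samples; circles are HetWT and triangles HetNrp1def. Melanocyte sums are 437 to 2417 in the replicate 3 and joined samples and 25.3 to 62.3 in the others, and in no panel do the groups separate.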

How the data were processed

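RNA of sorted Tregs was read on a NextSeq 500 after amplification with a SMARTer ultra-low-input kit and Nextera XT library preparation, per the labels' protocols. The authors deposited raw counts per gene symbol for 23420 genes and 45 libraries, for which the submitters' processing notes name STAR, featureCounts and the mm10 build. A second table deposited by the authors holds normalized log2 values of 10832 genes; the same notes name limma. In those log2 values each gene has the same mean in every replicate number (largest gap 3.8e-13), so they served as an alternative only. Versions, the annotation, the strand setting and the handling of shared reads are not stated, so genes that overlap others, lie antisense or have close paralogs are uncertain.

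Libraries of a group with a chi-square per degree of freedom below 5 were summed (4 pairs in the series), which left 41 samples in 9 groups. The counts went into edgeR 4.0.16 (R 4.3.3): TMM, filterByExpr by group, a robust quasi-likelihood fit of all 41 samples (32 residual degrees of freedom, no covariate), and Benjamini-Hochberg adjusted p below 0.05 over 14668 genes. Intervals are 95%. Per-sample tests of Nrp1, Foxp3 and Ifng were exact permutation tests of log2(CPM + 1). DESeq2 1.42.0 and limma 3.58.1 were alternatives, beside another scaling, no count filter, fits of fewer groups, unjoined libraries, a replicate block and each sample left out. The scripts were tested on simulated counts. Symbols were matched to GENCODE vM21 (mm10) for 21737 genes (92.8%), and coordinates come from there.

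Genes named in the text are Nrp1, Foxp3 and Ifng, the 10 higher and 10 lower genes with the smallest unadjusted p and a mean of at least 10 CPM, and, from each gene list, the 3 with the smallest p and the one with the highest CPM, unless the text says otherwise. Not every gene so chosen is printed, and some are not reported here. The members and the lists (21 functional and 13 of cell type markers) were chosen with earlier results of these data known. Beside the lists, medians by replicate label are of differences in log2(CPM + 1).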

Additional observations from a re-analysis of the deposited data

Results flagged for a closer look

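In groups of 4 samples a value was picked out when its gap to the nearest other sample, as a share of the range of the group, exceeded Dixon's critical value at the 95% level. Among 109 genes, those chosen by the naming rule outside the marker lists and 8 more given in the text, 175 groups with a highest sample of at least 10 CPM were examined. In 17 of them 1 sample passed, and in 9 of the 17 the sample was HetWT replicate 2. Chance gives about 1 in 20 groups for normally distributed values, but CPM values are skewed and many of these genes were chosen by their p in the same comparison, so that rate is no reference for the count. That sample was the high one for Drd1a (89.6 CPM, share 0.997), for Snx33, a sorting nexin (63.8 CPM, share 0.857), and for Btla, an inhibitory receptor (149 CPM against 39.1 to 46.8 CPM in the other HetWT samples, share 0.930). It was the high one for Tbx21 (150.2 CPM, share 0.935), Amot (41.4 CPM, share 0.990) and Sema4a (104.5 CPM against 17.7 to 20.9 CPM, share 0.963), and the low one for Ikzf2 (519 CPM, share 0.889). It was also the high one for Deptor (35.1 CPM, share 0.931) and for Bcl6, the transcription factor of follicular helper T cells (71.9 CPM against 9.99 to 19.6 CPM, share 0.844).

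HetNrp1def replicate 2 was the high sample for 5830418K08Rik (342 CPM, share 0.986), for Fam26f (78.5 CPM, share 0.886) and for the chemokine receptor Ccr2 (1634 CPM, share 0.869). HetNrp1def replicate 3 was the high sample for St7 (37.9 CPM, share 0.857), the joined HetNrp1def sample for Snx33 (13.9 CPM, share 0.947) and HetNrp1def ds2 for Gm4636 (47.2 CPM, share 0.836). HetWT replicate 3 was the high sample for 5830418K08Rik (51.1 CPM, share 0.874) and for Tab3 (21.9 CPM, share 0.897).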

How the results depend on the processing

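Of 68 alternatives to the counts of called genes in the tumour comparison and in both differences of differences, 65 gave 0 genes, among them every fit that left out a sample (0 to 0 genes; leaving out lymph node, N and WT samples was added after seeing the data), the fits without both ds2 samples and the fits of unjoined libraries. DESeq2 gave 12, 33 and 10 genes; the cause was not tested, and of the 12 genes 3 had failed the count filter of the edgeR fit. The exact-test difference of Nrp1 (-0.02) was 0.055 without TMM, 0.022 with unjoined libraries and 0.10 with the authors' log2 values, and -0.30 to 0.19 when samples were left out. That of Foxp3 (0.09) was -0.29 with unjoined libraries, -0.30 with the authors' log2 values and -0.37 to 0.51 with samples left out. That of Ifng (0.75) kept its sign, at 0.16 to 1.58 with samples left out. The cause of these sign changes was not tested, and no exact test passed 0.05. Of 386 fitted values of 23 genes under alternatives 20 had another sign (Nrp1, Foxp3, Ifng and Drd1a), and 0 were called. Of 21 list medians 14 had another sign under some alternative, and 32 of 357 values moved by more than the spread of the replicate labels.

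Samples with the same replicate label deviated together from their group means with r of 0.15 (replicate 2), 0.08 (replicate 3), 0.32 (joined) and 0.41 (ds2), and each of the 8 samples correlated best with its own label, a hint from the data and not from the labels. With the replicate block 0 genes were called in the fit of 41 samples and 0 in that of the 8 tumour samples, and the paired sign-flip test, which cannot go below 0.125, gave exact p of 1 for Nrp1, 0.875 for Foxp3 and 0.375 for Ifng. In the fit of 41 samples all joined samples shared a block label, although they join other libraries in the tumour than in the lymph node. With 4 samples a side and a median half-width of 1.72 (log2) at 10 to 100 CPM, differences smaller than that lay within the interval of a typical gene.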
